A study of Mus musculus with 12 samples.

Results

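Meis and Pbx proteins are homeodomain transcription factors of the TALE class that bind DNA together with Hox proteins, and Tgif1 is a TALE protein better known as a corepressor of Smad and retinoid signaling than as a Hox partner. The genes described here are Meis1, Meis2, Meis3, Pbx2, Pbx3 and Tgif1. They were taken by gene symbol from the count table, where 6 of 6 were present among 24495 genes. All 6 had enough counts to be tested, among 15532 genes tested in all. Some other genes of the same class are described further on.

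Mouse embryonic stem cells (mESCs) of the CCE-Nanog-GFP line were compared with and without knockdown of Ctsl, the gene of the protease cathepsin L, during differentiation with all-trans retinoic acid (RA). The knockdown line (shCTSL) carried a lentiviral shRNA against Ctsl under puromycin selection, and the control line (shSC) carried a scrambled hairpin. Day 0 cells were undifferentiated mESCs kept with LIF, sorted for GFP before the experiments, while Day 2 and Day 4 samples were embryoid bodies (EBs) grown under rotation with RA and without LIF. Poly(A) RNA was sequenced with a directional kit.

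The 6 groups were shSC Day 0, shSC Day 2, shSC Day 4, shCTSL Day 0, shCTSL Day 2 and shCTSL Day 4, each with 2 libraries. RA was given, LIF was withdrawn and EBs were formed at the same step, so their effects on a change from Day 0 cannot be told apart. The labels name 1 knockdown genotype and 1 control, so an effect of losing Ctsl cannot be told apart from any other difference between these 2 lines. Replicates are called only rep in the labels, and the p-values measure only the spread between these samples. All counts are of bulk RNA, in which fewer cells making a transcript cannot be told apart from less transcript per cell. Both comparisons with Day 0 share the Day 0 libraries of the line, and the comparisons between lines share the same control libraries.

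Meis proteins bind a TGACAG core and Pbx proteins a TGAT core, and their complexes place Hox proteins on regulatory elements in the hindbrain, limb and blood. Meis and Pbx genes are known to respond to RA in embryonal carcinoma and stem cells. Tgif1 recruits histone deacetylases to Smad proteins and to retinoid X receptors.

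The 12 libraries held between 11171111 counts (shCTSL Day 0, replicate 2) and 27155553 counts (shSC Day 2, replicate 1). The 2 shCTSL Day 2 libraries differed more from each other than the libraries of any other group. The standard deviation of their log2 ratio over genes was 0.604, against 0.178 to 0.269 in the other 5 groups. The main results of the members that use these libraries are therefore given with both and also without each. All 12 libraries shared an estimate of the spread. The shCTSL Day 2 libraries therefore also bear on the p-values and intervals of comparisons that do not use them, and some of these are given without that group. Levels below are normalized CPM, that is counts scaled to equal effective library size, and fold changes are edgeR estimates from a fit of all 12 libraries.

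Ctsl itself was lower in every shCTSL library than in every shSC library of the same day. Its levels were 137 and 147 CPM in shSC and 39.2 and 37.5 CPM in shCTSL at Day 0. At Day 2 they were 369 and 391 CPM in shSC against 211 and 155 CPM in shCTSL, and at Day 4 they were 484 and 423 CPM against 257 and 253 CPM. The knockdown was thus partial, and no difference in its depth between days was called. Ctsl was 3.71-fold lower in shCTSL at Day 0 (log2 -1.89 ± 0.144 SE, edgeR quasi-likelihood test, Benjamini-Hochberg adjusted p = 0.00246) and 2.08-fold lower at Day 2 (log2 -1.06, adjusted p = 0.0342). At Day 4 the estimate was 1.78-fold lower and missed the threshold (log2 -0.83, edgeR quasi-likelihood test, Benjamini-Hochberg adjusted p = 0.0896). Averaged over the 3 days Ctsl was 2.39-fold lower (log2 -1.26, edgeR quasi-likelihood test, Benjamini-Hochberg adjusted p = 1.98e-04). Some of these calls depended on single libraries: the Day 0 call was lost without either shCTSL Day 0 library, the Day 2 call was lost in 14 of 22 alternative analyses, and the Day 4 call was gained in 8 of 23. The estimate was below 0 in all of them. In both lines Ctsl rose after Day 0, by 1.67 on the log2 scale by Day 4 in shSC and by 2.73 in shCTSL.

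Marker lists show what the samples contained at each day. The counts of markers called by Day 4 stand beside the shares of all tested genes. These were 32.1% higher and 28.7% lower in shSC, and 32.3% and 27.6% in shCTSL. The 6 pluripotency markers (Nanog, Pou5f1, Sox2, Klf4, Esrrb and Zfp42) summed to 4715 to 5156 CPM at Day 0, 725 to 845 CPM at Day 2 and 252 to 328 CPM at Day 4 over the libraries of both lines. By Day 4 in shSC 6 of 6 were called lower, with a median log2 change of -3.87 beside 0.029 for all tested genes, led by Zfp42 (-4.87) and Pou5f1 (-4.49). Pou5f1 was the most abundant of them except in shSC at Day 4, where Sox2 was, and none was at 0 in any library. Exit from the pluripotent state was thus visible in both lines, with 6 of 6 also called lower in shCTSL (median -3.96 beside 0.061).

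Of the 6 endoderm markers 6 were called higher by Day 4 in shSC (median log2 change 6.82), with Gata6 most abundant in the EBs and up by 7.30. Afp had no counts in either shSC Day 0 library or in 1 shCTSL Day 0 library, and its increase by Day 4 in shSC was at least 399-fold. The endoderm sum went from 8.86 to 12.01 CPM at Day 0 to 344 to 407 CPM at Day 4. Mesoderm markers were low at Day 0 (7.56 to 9.18 CPM in sum) and reached 182 to 236 CPM at Day 4, with Kdr the most abundant of them in the EBs. At Day 2 the mesoderm sum was 111 and 114 CPM in shSC and 41.5 and 68.0 CPM in shCTSL, and Kdr was at -1.29 between the lines without being called (edgeR quasi-likelihood test, Benjamini-Hochberg adjusted p = 0.184). In shSC 4 of the 5 tested mesoderm markers were called higher by Day 4 (median 3.64), with Foxf1 (8.43) and Kdr (5.64) first. The other, the brachyury gene T, was at -1.61 and not called. In shCTSL 4 were called higher and 1 lower (median 4.58), the lower being T (-1.78). Mesp1 had too few counts to be tested and was at 0 in 1 shSC Day 4 library. Transcripts of the endoderm and mesoderm lists were thus present in the same EBs, without a rise of T.

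Of the 6 neural markers 4 were called higher and 1 lower by Day 4 in shSC (median 1.64), and 5 higher and 1 lower in shCTSL (median 1.05). The shares of all genes were 32.1% higher and 28.7% lower in shSC and 32.3% and 27.6% in shCTSL. With so few genes the neural counts say little against these shares. Tubb3 was the most abundant at Day 0 and fell by 3.94 on the log2 scale, whereas Nes was the most abundant at Day 4. Neurog2 was at 0 in 4 libraries of Day 0 and Day 2, and its ratio of Day 4 to Day 0 in shSC was 14.6 from 2 Day 0 counts (95% interval 3.77 to 125). The neural sum was 214 to 245 CPM at Day 0, 134 to 177 CPM at Day 2 and 130 to 171 CPM at Day 4.

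Of the 4 tested genes on the list called trophoblast 3 were called higher and 1 lower by Day 4 in shSC (median 1.97), Gata3 rising by 6.58, Krt7 by 2.73 and Tfap2c falling by 1.25. Elf5 was not tested and was at 0 in 4 libraries. The trophoblast list summed to 37.6 to 60.5 CPM at Day 0, 68.1 to 83.2 CPM at Day 2 and 212 to 254 CPM at Day 4, with Tfap2c most abundant first and Gata3 later. Of the 5 collagen and stromal genes on the fibroblast list 4 were called higher and 1 lower by Day 4 in shSC (median 5.003), Col3a1 rising by 10.21 and Thy1 falling by 1.599. Their sum was 7.06 to 11.21 CPM at Day 0, 22.3 to 29.6 CPM at Day 2 and 388 to 410 CPM at Day 4. Thy1 was the most abundant at Day 0, Col1a2 at Day 2 and Col3a1 at Day 4, and Postn was at 0 in 1 shCTSL Day 0 library. Most genes of these last 2 lists are expressed in several lineages, so no cell type is named from them. No marker was called different between the lines on any day.

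Against this background 5 of 6 members were called higher and 1 of 6 lower in shSC when Day 2 was compared with Day 0, where 29.3% of all tested genes were called higher and 25.3% lower. The same 5 and the same 1 were called in shCTSL, where the shares of all genes were 30.9% and 24.6%. By Day 4 the counts were again 5 and 1 in shSC, beside 32.1% and 28.7% of all genes, and 5 and 1 in shCTSL, beside 32.3% and 27.6%. The direction of each member was thus the same in both lines and at both days, and Tgif1 was the member that fell. None of these 24 directions turned in any alternative analysis.

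**Figure D1:**
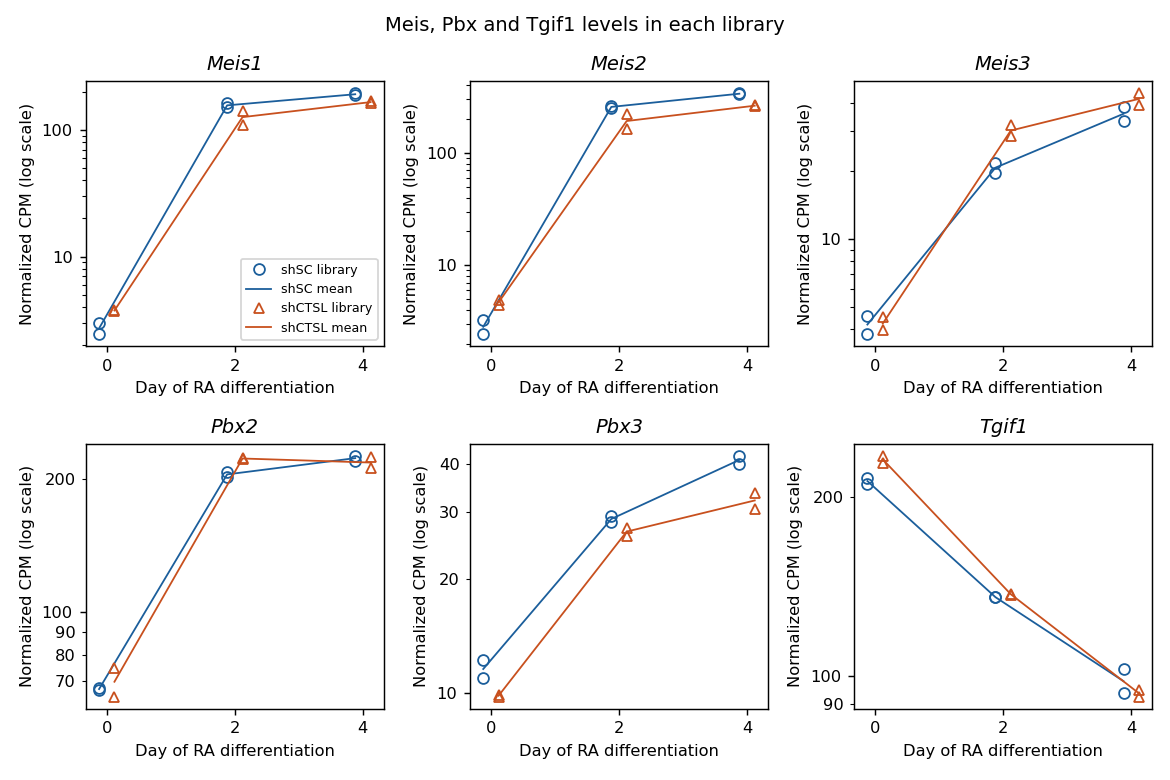
Normalized CPM (log scale) of the 6 members in each library by day, with shSC as circles, shCTSL as triangles and lines through the group means. Meis1, Meis2 and Meis3 start lowest, Meis1 and Meis2 rise most, and only Tgif1 falls.

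Meis1 was close to absent before differentiation. Its level in shSC was 2.44 and 2.97 CPM at Day 0 (32 and 48 counts), 151 and 162 CPM at Day 2, and 188 and 196 CPM at Day 4. In shCTSL it was 3.80 and 3.69 CPM at Day 0 (51 and 35 counts), 111 and 142 CPM at Day 2, and 163 and 170 CPM at Day 4. Most of the increase was therefore in place by Day 2. Meis1 rose 57.4-fold in shSC by Day 2 (log2 5.84 ± 0.166 SE, edgeR quasi-likelihood test, Benjamini-Hochberg adjusted p = 7.38e-09) and 70.3-fold by Day 4 (log2 6.13, adjusted p = 3.60e-09). In shCTSL Meis1 rose 33.7-fold by Day 2 (log2 5.07 ± 0.164 SE, edgeR quasi-likelihood test, Benjamini-Hochberg adjusted p = 1.59e-08) and 44.2-fold by Day 4 (log2 5.47, adjusted p = 7.54e-09). The difference between the lines in these folds was tested as an interaction, given further on, and was not called.

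Meis2 had the largest change of all members. In shSC its level was 2.44 and 3.22 CPM at Day 0 (32 and 52 counts), 251 and 262 CPM at Day 2, and 332 and 341 CPM at Day 4. In shCTSL it was 4.40 and 4.95 CPM at Day 0 (59 and 47 counts), 164 and 221 CPM at Day 2, and 259 and 267 CPM at Day 4. The annotated exonic length of Meis2 is the longest of the 3 Meis genes, and levels per kb of exonic length are given further on. The increase in shSC was 89.7-fold by Day 2 (log2 6.49 ± 0.185 SE, edgeR quasi-likelihood test, Benjamini-Hochberg adjusted p = 9.22e-09) and 118-fold by Day 4 (log2 6.88, adjusted p = 4.10e-09). In shCTSL Meis2 rose 41.3-fold by Day 2 (log2 5.37 ± 0.177 SE, edgeR quasi-likelihood test, Benjamini-Hochberg adjusted p = 2.06e-08) and 56.5-fold by Day 4 (log2 5.82, adjusted p = 8.91e-09). Without replicate 1 or replicate 2 of the shCTSL Day 2 group the Day 2 estimates in shCTSL were 5.28 and 4.88 for Meis1 and 5.61 and 5.14 for Meis2, so neither increase rested on a single library.

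Meis3 rose less than Meis1 and Meis2. Its level in shSC was 3.81 and 4.59 CPM at Day 0 (50 and 74 counts), 21.8 and 19.6 CPM at Day 2, and 33.4 and 38.2 CPM at Day 4. The shCTSL libraries had 3.95 and 4.53 CPM, then 31.9 and 28.5 CPM, then 39.1 and 44.2 CPM. Its values in the EBs were above those of shSC, a difference that was not called. The lines did not overlap for 45.5% of all genes at Day 2 and 61.5% at Day 4. Meis3 rose 4.90-fold in shSC by Day 2 (log2 2.29 ± 0.160 SE, edgeR quasi-likelihood test, Benjamini-Hochberg adjusted p = 1.17e-06) and 8.47-fold by Day 4 (log2 3.08, adjusted p = 1.11e-07). In shCTSL Meis3 rose 7.14-fold by Day 2 (log2 2.84 ± 0.166 SE, edgeR quasi-likelihood test, Benjamini-Hochberg adjusted p = 3.92e-07) and 9.87-fold by Day 4 (log2 3.30, adjusted p = 9.65e-08). Without replicate 1 or replicate 2 of shCTSL Day 2 the Meis3 estimate at Day 2 was 2.80 and 2.92, called in both.

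Levels per kb of exonic length put the 3 Meis genes on a shared scale. The length used is the union of all annotated exons of a gene, which can exceed that of the transcripts present. The levels per kb and the shares below depend on this choice. Their exonic lengths in the annotation were 7394 bases for Meis1, 11872 for Meis2 and 1820 for Meis3. At Day 0 in shSC Meis3 was the highest of the 3 at 2.31 ± 0.300 CPM per kb (mean ± SD), above Meis1 at 0.366 ± 0.0511 and Meis2 at 0.238 ± 0.0466. Meis3 thus made up 79.6% and 78.9% of the summed Meis level in the 2 shSC Day 0 libraries. At Day 2 in shSC Meis1 reached 21.2 ± 1.06 and Meis2 21.6 ± 0.695 CPM per kb, while Meis3 stood at 11.4. The Meis3 share fell to 22.4% and 19.7% at Day 2 and was 25.6% and 27.6% at Day 4, where Meis2 had the largest share of the sum in both shSC libraries (39.0% and 37.7%). On this scale the mixture turned from mostly Meis3 into one led by Meis1 and Meis2.

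In shCTSL the Meis3 share also fell after Day 0, but Meis3 still had the largest share in 1 library of Day 2 and 1 of Day 4. Its share of the summed per-kb Meis level was 71.0% and 73.1% at Day 0, 37.9% and 29.2% at Day 2, and 32.9% and 34.8% at Day 4. At Day 4 in shCTSL the 3 genes were nearly equal, at 22.5 CPM per kb for Meis1, 22.2 for Meis2 and 22.9 for Meis3. At Day 0 the shCTSL values were 0.507 for Meis1, 0.394 for Meis2 and 2.33 for Meis3. The Meis3 share was higher in both shCTSL libraries than in both shSC libraries at Day 2 and at Day 4, and lower at Day 0. These shares are descriptions of 2 libraries per group and were not tested. The 3 genes differ widely in length, and offsets for exonic length made the estimated differences between lines in the EBs smaller, for Meis3 from 0.54 to 0.36 at Day 2 and from 0.22 to 0.086 at Day 4.

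**Figure D2:**
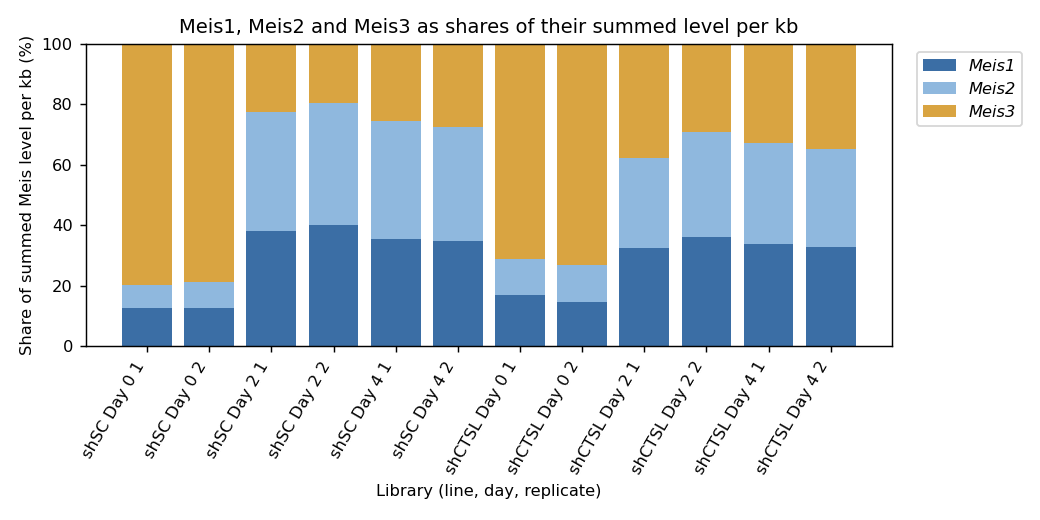
Stacked bars of the share (percent) of Meis1, Meis2 and Meis3 in their summed normalized CPM per kb in each of the 12 libraries. Meis3 dominates at Day 0, and keeps a larger share in shCTSL than in shSC at Day 2 and Day 4.

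Pbx2 was already well expressed in undifferentiated cells. Its level in shSC was 66.6 and 67.4 CPM at Day 0, 208 and 202 CPM at Day 2, and 220 and 226 CPM at Day 4. The shCTSL libraries had 74.8 and 64.4 CPM, then 223 CPM in both libraries, then 212 and 224 CPM. The level was thus flat after Day 2 in both lines. Pbx2 rose 3.06-fold in shSC by Day 2 (log2 1.61 ± 0.099 SE, edgeR quasi-likelihood test, Benjamini-Hochberg adjusted p = 6.01e-07) and 3.33-fold by Day 4 (log2 1.74, adjusted p = 2.23e-07). In shCTSL Pbx2 rose 3.20-fold by Day 2 (log2 1.68, edgeR quasi-likelihood test, Benjamini-Hochberg adjusted p = 4.90e-07) and 3.13-fold by Day 4 (log2 1.65, adjusted p = 3.39e-07). Without replicate 1 or replicate 2 of shCTSL Day 2 the Pbx2 estimate at Day 2 was 1.71 and 1.67, again called.

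Pbx3 was expressed at a lower level. Its level in shSC was 12.2 and 10.97 CPM at Day 0 (160 and 177 counts), 29.2 and 28.2 CPM at Day 2, and 42.0 and 39.9 CPM at Day 4. In shCTSL it was 9.92 and 9.80 CPM at Day 0 (133 and 93 counts), 25.9 and 27.24 CPM at Day 2, and 33.6 and 30.5 CPM at Day 4. Pbx3 was lower in both shCTSL libraries than in both shSC libraries on each of the 3 days, but no difference was called. The lines did not overlap for 51.3% of all genes at Day 0, 45.5% at Day 2 and 61.5% at Day 4. Pbx3 rose 2.48-fold in shSC by Day 2 (log2 1.31 ± 0.117 SE, edgeR quasi-likelihood test, Benjamini-Hochberg adjusted p = 6.18e-06) and 3.54-fold by Day 4 (log2 1.82, adjusted p = 4.48e-07). In shCTSL Pbx3 rose 2.70-fold by Day 2 (log2 1.43, edgeR quasi-likelihood test, Benjamini-Hochberg adjusted p = 4.17e-06) and 3.25-fold by Day 4 (log2 1.70, adjusted p = 9.18e-07). Its Day 2 estimate in shCTSL was 1.504 and 1.392 without replicate 1 and replicate 2 of that group, called in both.

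Tgif1 moved the other way. Its level in shSC was 210 and 215 CPM at Day 0, 136 CPM in both libraries at Day 2, and 103 and 93.6 CPM at Day 4. In shCTSL it was 228 and 234 CPM at Day 0, 138 and 137 CPM at Day 2, and 94.9 and 92.4 CPM at Day 4. The decline was stepwise, with a drop in each interval. Tgif1 fell 1.57-fold in shSC by Day 2 (log2 -0.65 ± 0.090 SE, edgeR quasi-likelihood test, Benjamini-Hochberg adjusted p = 1.36e-04) and 2.16-fold by Day 4 (log2 -1.11, adjusted p = 2.25e-06). In shCTSL Tgif1 fell 1.68-fold by Day 2 (log2 -0.75, edgeR quasi-likelihood test, Benjamini-Hochberg adjusted p = 4.81e-05) and 2.47-fold by Day 4 (log2 -1.30, adjusted p = 8.16e-07). The Day 2 estimate of Tgif1 in shCTSL was -0.71 and -0.75 without replicate 1 and replicate 2 of that group, called in both. Its correlation with the other members over the 12 libraries ran from -0.909 to -0.958.

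On the per-length scale the order of the members changed between mESCs and EBs. At Day 0 in shSC Tgif1 led at 63.1 ± 1.09 CPM per kb, followed by Pbx2 at 18.4 ± 0.165, with Meis3 at 2.31 and Pbx3 at 1.81 far below. By Day 2 Pbx2 had taken the first place at 56.3 CPM per kb, with Tgif1 at 40.3. At Day 4 Pbx2 stood at 61.3 CPM per kb, and Tgif1 at 29.1 ± 1.91 was close to Meis2 at 28.3 ± 0.510 and Meis1 at 25.9 ± 0.783. Pbx3 was the lowest member at Day 4, at 6.41 CPM per kb. The shCTSL line had the same first and last places at each EB day, with Pbx2 at 59.9, Tgif1 at 27.8 and Pbx3 at 5.01 CPM per kb at Day 4.

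Between Day 2 and Day 4 fewer members moved. In shSC 1 of 6 was called higher and 0 lower, where 11.4% of all genes were called higher and 12.4% lower. The member called was Meis3, which rose 1.73-fold (log2 0.79 ± 0.139 SE, edgeR quasi-likelihood test, Benjamini-Hochberg adjusted p = 0.00203). Pbx3 rose 1.43-fold (log2 0.52, edgeR quasi-likelihood test, Benjamini-Hochberg adjusted p = 0.00609) and Tgif1 fell 1.38-fold (log2 -0.47, adjusted p = 0.00337), both under the 1.5-fold threshold for a call. The estimates of Meis1 (0.29), Meis2 (0.39) and Pbx2 (0.12) in shSC had adjusted p values of 0.118, 0.0660 and 0.394 (edgeR quasi-likelihood test, Benjamini-Hochberg). Without both shCTSL Day 2 libraries Meis1 (0.27) and Meis2 (0.37) had adjusted p of 0.00346 and 2.64e-04, still under 1.5-fold (edgeR quasi-likelihood test, Benjamini-Hochberg). In the control line Meis3 was therefore the only member past both thresholds after Day 2.

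In shCTSL 0 of 6 members were called in either direction from Day 2 to Day 4, where 11.0% of all genes were called higher and 12.4% lower. Estimates were 0.39 for Meis1, 0.45 for Meis2, 0.47 for Meis3 and -0.55 for Tgif1, with adjusted p of 0.0433, 0.0390, 0.0289 and 0.00146, all under 1.5-fold (edgeR quasi-likelihood test, Benjamini-Hochberg). Pbx2 (-0.03) and Pbx3 (0.27) had adjusted p of 0.842 and 0.0966 in the same test (edgeR quasi-likelihood, Benjamini-Hochberg). Without replicate 2 of shCTSL Day 2 the Meis1 and Meis2 estimates were 0.59 and 0.69 and both were called, while without replicate 1 they were 0.20 and 0.23 and were not. The estimates of Meis1 and Meis2 were above 0 in every alternative, and whether they reached 1.5-fold depended on which Day 2 library was used.

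Comparing the lines day by day, 0 of 6 members were called at Day 0, where 6 genes or 0.0386% of those tested were called. At Day 2 it was 0 of 6 beside 0.0644% (10 genes), and at Day 4 it was 0 of 6 beside 0.0129% (2 genes). Averaged over the 3 days it was again 0 of 6 beside 0.270% (42 genes). These small numbers depend on the method and on single libraries: genes with unadjusted p under 0.05 numbered 1127, 3014, 1897 and 3510 in these 4 comparisons, and DESeq2 called 48, 125, 132 and 128 genes. Leaving out 1 library at a time gave 0 to 213, 0 to 5016, 0 to 923 and 7 to 1209 genes, with up to 1 member called at Day 0 and up to 2 at Day 2. The 2 genes called at Day 4 were the noncoding RNA genes Rian (log2 -2.62) and Meg3 (log2 -2.11), named here after their values were seen. With 2 libraries per group, a member that was not called may still differ between the lines by an amount within the intervals below.

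At Day 0 the largest estimates were those of Meis2 and Meis1. Meis2 was 0.70 ± 0.212 SE higher in shCTSL on the log2 scale (95% interval 0.23 to 1.18, edgeR quasi-likelihood test, Benjamini-Hochberg adjusted p = 0.463). Meis1 was estimated 0.46 higher (95% interval 0.026 to 0.90, edgeR quasi-likelihood test, Benjamini-Hochberg adjusted p = 0.658). Both rest on 32 to 59 counts per library. Estimates for Pbx3 (-0.23), Tgif1 (0.12) and Pbx2 (0.056) had adjusted p of 0.775, 0.891 and 0.975, and Meis3 was at -9.0e-05 with an adjusted p of 1 (edgeR quasi-likelihood test, Benjamini-Hochberg). The Meis2 difference at Day 0 was called when only the Day 0 libraries were fitted (0.71, edgeR quasi-likelihood test, Benjamini-Hochberg adjusted p = 0.0424) and when both shCTSL Day 2 libraries were left out (0.70, adjusted p = 0.0364).

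At Day 2 the estimates of the Meis genes differed in sign, and none was called with all 12 libraries. Meis3 was estimated 0.54 ± 0.139 SE higher in shCTSL (95% interval 0.23 to 0.85, edgeR quasi-likelihood test, Benjamini-Hochberg adjusted p = 0.214). Meis2 was estimated at -0.42 ± 0.144 SE (95% interval -0.74 to -0.096, edgeR quasi-likelihood test, Benjamini-Hochberg adjusted p = 0.222) and Meis1 at -0.31 ± 0.129 SE (95% interval -0.59 to -0.022, adjusted p = 0.244). Pbx2 (0.12), Pbx3 (-0.11) and Tgif1 (0.016) had adjusted p of 0.467, 0.553 and 0.924 (edgeR quasi-likelihood test, Benjamini-Hochberg). The size of these estimates turned on the 2 unlike shCTSL Day 2 libraries. Without replicate 1 the estimates were -0.21 for Meis2, -0.13 for Meis1 and 0.47 for Meis3, and none was called. Without replicate 2 they were -0.65 for Meis2, -0.50 for Meis1 and 0.62 for Meis3, and Meis2 and Meis3 were called (edgeR quasi-likelihood test, Benjamini-Hochberg adjusted p = 1.33e-05 and 7.95e-04). The Ctsl difference at Day 2 likewise went from -1.28 without replicate 1 to -0.85 without replicate 2.

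At Day 4 Pbx3 and Meis2 had the largest estimates. Meis2 was at -0.36 ± 0.144 SE (95% interval -0.68 to -0.035, edgeR quasi-likelihood test, Benjamini-Hochberg adjusted p = 0.381) and Pbx3 at -0.35 ± 0.111 SE (95% interval -0.60 to -0.11, adjusted p = 0.300). Meis1 was estimated at -0.21 (95% interval -0.49 to 0.080, edgeR quasi-likelihood test, Benjamini-Hochberg adjusted p = 0.494). Meis3 (0.22), Tgif1 (-0.068) and Pbx2 (-0.033) had adjusted p of 0.494, 0.716 and 0.876 (edgeR quasi-likelihood test, Benjamini-Hochberg). No member reached 1.5-fold between the lines at this day. With offsets for exonic length the Day 4 estimates were -0.099 for Meis2, -0.050 for Meis1, 0.086 for Meis3 and -0.23 for Pbx3, and those at Day 2 were -0.088, -0.11, 0.36 and 0.057. At Day 0 they were 0.80 for Meis2 and 0.51 for Meis1. The cause of this dependence was not tested.

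**Figure D3:**
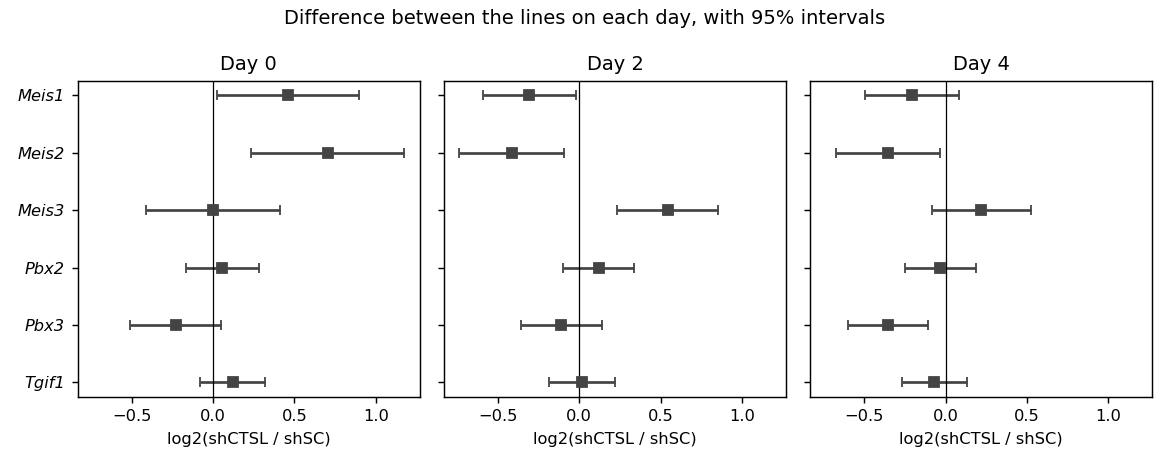
Log2 ratio of shCTSL to shSC for the 6 members at Day 0, Day 2 and Day 4, with 95% intervals from the edgeR fit. Meis1 and Meis2 lie above 0 at Day 0 and below 0 at Day 2 and Day 4.

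Averaged over the 3 days and without length offsets, the members lay near 0 except Meis3 and Pbx3. Meis3 was at 0.25 and Pbx3 at -0.23, with adjusted p of 0.184 and 0.149 (edgeR quasi-likelihood test, Benjamini-Hochberg). For Pbx2 (0.048), Tgif1 (0.023), Meis2 (-0.023) and Meis1 (-0.018) the adjusted p values were 0.607, 0.797, 0.932 and 0.987 (edgeR quasi-likelihood test, Benjamini-Hochberg). For Meis1 and Meis2 the estimates at Day 0 and in the EBs had opposite signs. Without replicate 1 of shCTSL Day 2 their averages were 0.048 and 0.050, and without replicate 2 they were -0.084 and -0.10. The Meis3 average was 0.23 and 0.28 and the Pbx3 average -0.21 and -0.24 in the same fits, under 1.5-fold. With offsets for exonic length the averages were 0.12 for Meis1, 0.21 for Meis2 and 0.14 for Meis3, so Meis3 did not stand apart there.

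Library by library, the values of the lines did not overlap for 4 of 6 members at Day 0, where this held for 51.3% of all genes. Meis1, Meis2 and Tgif1 were then higher in shCTSL and Pbx3 was lower. At Day 2 the values did not overlap for 6 of 6 members, beside 45.5% of all genes, and at Day 4 for 4 of 6, beside 61.5%. Pbx2 and Tgif1 overlapped at Day 4. With 2 libraries against 2, such separation was common in the whole table and carries little weight for any member.

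The difference between the lines in the time course was tested as an interaction. From Day 0 to Day 2 it was called for 0 of 6 members, beside 0% of all genes, from Day 0 to Day 4 for 0 of 6 beside 0.00644% (1 gene), and from Day 2 to Day 4 for 0 of 6 beside 0%. Genes with unadjusted p under 0.05 numbered 1716, 1042 and 753, and DESeq2 called 24, 28 and 11 genes. The gene called was Lefty2 (log2 1.52), named after its value was seen. Leaving out 1 library at a time gave 0 to 4120, 0 to 252 and 0 to 2325 genes, so the low counts belong to this fit.

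Meis2 had the largest interaction among the members. Its increase to Day 2 was smaller in shCTSL by 1.12 ± 0.256 SE on the log2 scale (95% interval of the interaction -1.69 to -0.55, edgeR quasi-likelihood test, Benjamini-Hochberg adjusted p = 0.390). To Day 4 the Meis2 interaction was -1.06 (95% interval -1.63 to -0.49, edgeR quasi-likelihood test, Benjamini-Hochberg adjusted p = 0.521). Both Meis2 interactions include its Day 0 difference of 0.70, which rests on 32 to 59 counts per library. Its differences in the EBs were -0.42 at Day 2 and -0.355 at Day 4, and -0.088 and -0.099 with length offsets. For Meis1 the interactions were -0.77 ± 0.234 SE to Day 2 and -0.67 to Day 4, with adjusted p of 0.390 and 0.668 (edgeR quasi-likelihood test, Benjamini-Hochberg). None of these estimates passed the test. Meis3 had 0.54 to Day 2 and 0.22 to Day 4, with adjusted p of 0.439 and 0.896 (edgeR quasi-likelihood test, Benjamini-Hochberg). Pbx2, Pbx3 and Tgif1 lay between -0.19 and 0.12 in both. From Day 2 to Day 4 the interactions of the members ran from -0.32 (Meis3) to 0.10 (Meis1).

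The Meis2 interaction passed in some alternatives and not in others. To Day 4 it was called when only the libraries compared were fitted (-1.05, edgeR quasi-likelihood test, Benjamini-Hochberg adjusted p = 0.0251), with limma-voom (-1.06, adjusted p = 0.0410) and without both shCTSL Day 2 libraries (-1.05, adjusted p = 0.0132). To Day 2 it was called by DESeq2 (-1.16, Wald test, Benjamini-Hochberg adjusted p = 0.0495) and without either shCTSL Day 2 library. Without replicate 1 of that group it was -0.91 and without replicate 2 it was -1.34, with adjusted p of 0.0232 and 1.15e-04 (edgeR quasi-likelihood test, Benjamini-Hochberg). The sign of the Meis2 interaction to Day 2 and to Day 4 was the same throughout. With only the libraries compared, the interaction to Day 2 was not called (-1.12, edgeR quasi-likelihood test, Benjamini-Hochberg adjusted p = 0.661).

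Some other TALE homeobox genes were compared with the members. Tgif2, the paralog of Tgif1, did not share its decline. Its mean level went from 39.9 to 50.8 CPM in shSC by Day 4, a change of 0.35 that was not called, and from 37.6 to 59.0 CPM in shCTSL, a change of 0.65 that was (edgeR quasi-likelihood test, Benjamini-Hochberg adjusted p = 0.0863 and 0.00612). Pknox1 went from 48.2 to 35.5 CPM in shSC, a change of -0.44 under the 1.5-fold threshold, and from 47.5 to 30.3 CPM in shCTSL, where it was called lower (-0.65). Pknox2 rose by 3.06 on the log2 scale in shSC, from 2.05 to 17.2 CPM. Pbx4 stayed low, at means of 4.56 to 6.81 CPM in shSC. These genes thus did not move as 1 class. Irx1 (6.60) and Irx3 (6.54) rose by Day 4 in shSC from means of 0.162 and 0.317 CPM at Day 0. Irx5 (3.01), Irx2 (2.65) and Mkx (0.93) were also called higher in shSC, and Irx4 (0.44) was not. In shCTSL Irx2 rose by 1.37 and Mkx was not called (0.38), and neither gene was called for a difference between the lines.

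Hox genes of paralog groups 1 to 5, which are among the partners of Meis and Pbx proteins, were taken as a list. All 15 tested were called higher at Day 2 and at Day 4 in both lines, with medians of 8.42 in shSC and 7.97 in shCTSL at Day 4 beside 0.029 and 0.061 for all genes. Of all tested genes 29.3% in shSC and 30.9% in shCTSL were called higher at Day 2, and 32.1% and 32.3% at Day 4. The shCTSL median was 7.40 when genes with few Day 0 counts took their ratio or lower bound. Their sum was 4.03 to 5.58 CPM at Day 0, 1141 to 1535 CPM at Day 2 and 941 to 1019 CPM at Day 4. Hoxb3 had no counts at Day 0 in shSC, and its increase by Day 4 was at least 1032-fold. Hoxb5 had 1 Day 0 count in shSC, and its ratio by Day 4 was 2267 (95% interval 406 to 89560). Meis1, Meis2 and these Hox genes therefore came on over the same 2 days, with the Hox genes starting closer to 0.

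Among 14 retinoic acid receptors, binding proteins and enzymes, 9 were called higher and 2 lower by Day 4 in shSC (median 4.22) and 11 higher and 2 lower in shCTSL (median 4.41), beside medians of 0.029 and 0.061 for all genes. The shares of all genes called were 32.1% higher and 28.7% lower in shSC and 32.3% and 27.6% in shCTSL. Cyp26b1 (10.64) and Stra6 (9.60) rose most in shSC, while Rarg (-2.26) and Rxrg (-1.30) fell. The Rxrg call was lost in 9 alternatives, and the gene had 6 to 16 counts per library of the 2 groups compared. A larger share of this list than of all genes was called higher. The list was chosen with earlier results of these data known, so this excess is a description and not a test. An effect of RA on these genes cannot be told apart from that of the other steps of differentiation.

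Among 9 partners of Tgif proteins and other Smad corepressors, 4 were called higher and 3 lower by Day 4 in shSC (median 0.27) and 3 higher and 3 lower in shCTSL (median 0.18), close to the shares of all genes (32.1% and 28.7%, and 32.3% and 27.6%). Ctbp2 (-2.16) and Sin3a (-0.84) fell in shSC with Tgif1, and Smad3 (2.61) and Ctbp1 (0.70) rose. Of 9 factors other than Hox that bind Meis or Pbx proteins 8 were tested, Myod1 having too few counts. In shSC 3 of them were called higher and 1 lower by Day 4 (median 0.63), and in shCTSL 5 higher and 1 lower (median 1.09), where the shares of all genes were again 32.1% and 28.7% in shSC and 32.3% and 27.6% in shCTSL. Pbxip1 (2.27) and Pax6 (1.71) rose in shSC and En2 (-3.08) fell. Neither partner list moved in 1 direction, and with so few genes the counts say little against these shares.

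Genes with the most similar pattern to each member were looked for among 10993 genes, by Pearson correlation of log2 CPM over the 12 libraries. For Meis1 they were Hoxb3 (r = 0.999), Hoxa3 (0.998) and Foxa1 (0.998), and for Meis2 Hoxb3 (0.998), Cyp26b1 (0.998) and Pdzrn3 (0.997). Meis1 and Meis2 correlated with each other at 0.9995. For Meis3 they were Smpd1 (0.997), Ctxn1 (0.996) and Sirt2 (0.996), and for Pbx2 Letmd1 (0.998), Asic2 (0.998) and Hoxb4 (0.998). For Pbx3 they were Zfp629, Usp3 and Phactr2 (0.994 to 0.995), and for Tgif1 Nmnat2 (0.995), Mad2l1 (0.993) and Ap2a2 (0.993). All these genes share the time course from Day 0 to Day 4, so high correlations say little beyond that shared course.

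The members lie on 4 chromosomes in the mm9 assembly: Meis1 at chr11:18780433-18918961, Meis2 at chr2:115688800-115891575, Pbx3 at chr2:34026977-34228660, Meis3 at chr7:16760729-16771853, Pbx2 at chr17:34728211-34734345 and Tgif1 at chr17:71193545-71202886. Meis3 and Pbx2 are on the plus strand and the other 4 on the minus strand. Exons of Meis1 overlap those of Gm16140 on the opposite strand over 896 bases (12.1% of its exonic length). Exons of Pbx2 overlap those of Gpsm3 on the same strand over 227 bases (6.24%). The strand setting used in counting is not given in the sources, so a part of the Meis1 counts cannot be told apart from those of Gm16140. Reads in the exonic bases that Pbx2 shares with Gpsm3 cannot be assigned to either gene by strand.

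Promoter windows of 250 bases before a RefSeq start were present in the reference for 5 of 6 members: 1 each for Meis1, Meis2, Meis3 and Pbx2 and 5 for Tgif1, none for Pbx3. They were searched on both strands for 12 motifs, which were chosen after the windows had been seen and of which some contain others. The retinoid receptor core AGGTCA was found in 1 Tgif1 window, 237 bases before the start, beside 14% of all 32851 windows. The Pbx-Hox form TGATNNAT was in the same Tgif1 window at 134 bases before the start, beside 7.68% of all windows. The Meis core TGACAG was in no window of a member, beside 15.9% of all. CCAAT was in 1 window each of Meis1, Meis2 and Tgif1 (33.8% of all windows), GGGCGG in 1 window of Pbx2 and 2 of Tgif1 (32.7%) and TATAAA in 1 of Meis2 (12.4%). The Meis3 window had none of the 12 motifs. Shares of this size in all windows mean that single matches are common, and no binding was measured here.

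The Meis1 window (RefSeq, GRCm38.p6 chr11:19018970-19019219, minus strand, 59.6% G and C) has 1 CCAAT box, in capitals, 54 bases before the start: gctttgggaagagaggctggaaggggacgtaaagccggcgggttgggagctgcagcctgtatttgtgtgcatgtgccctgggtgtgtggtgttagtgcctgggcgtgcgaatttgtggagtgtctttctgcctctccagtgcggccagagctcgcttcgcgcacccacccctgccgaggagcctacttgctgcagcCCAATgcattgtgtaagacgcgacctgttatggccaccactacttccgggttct. The Meis2 window is less rich in G and C (47.6%) and lies inside the span of Meis2 in the mm9 annotation. Of it the 180 bases outside exons (GRCm38.p6 chr2:116064622-116064801, minus strand) hold the TATAAA match 152 bases before the start: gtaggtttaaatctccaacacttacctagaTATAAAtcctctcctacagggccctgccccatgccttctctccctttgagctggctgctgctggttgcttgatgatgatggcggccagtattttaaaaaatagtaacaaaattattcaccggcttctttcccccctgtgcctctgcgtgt.

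The Pbx2 window (GRCm38.p6 chr17:34592009-34592258, plus strand) is the richest in G and C of the windows of members (77.6%) and holds GGGCGG on the minus strand at 142 and 83 bases before the start. It lies inside the span of Pbx2 in the mm9 annotation, in no exon: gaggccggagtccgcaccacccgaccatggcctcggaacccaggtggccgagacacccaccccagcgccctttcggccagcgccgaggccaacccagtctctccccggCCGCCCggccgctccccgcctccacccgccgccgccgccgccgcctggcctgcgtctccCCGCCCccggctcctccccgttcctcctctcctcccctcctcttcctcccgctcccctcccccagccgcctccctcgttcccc.

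The Tgif1 window with the AGGTCA match (GRCm38.p6 chr17:70849808-70850040, minus strand) has 51.2% G and C and lies inside the span of Tgif1 in the mm9 annotation. It is given here as the 233 bases outside exons, with AGGTCA, the TGATNNAT match and GGGCGG in capitals: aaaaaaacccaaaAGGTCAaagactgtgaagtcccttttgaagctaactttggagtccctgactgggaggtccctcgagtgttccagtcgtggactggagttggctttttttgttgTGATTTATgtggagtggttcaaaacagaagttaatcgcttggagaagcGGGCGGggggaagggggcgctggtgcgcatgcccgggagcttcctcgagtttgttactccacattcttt.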

How the data were processed

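The values are deposited counts of fragments per RefSeq gene in 12 libraries, which the authors made, per the submitters' processing notes, with STAR 2.3.0e on mm9, SAMtools 0.1.19 (alignments of mapping quality under 10, mitochondria and contigs outside chromosomes removed) and featureCounts 1.6.2. Reads of near-identical copies were not examined beyond that filter. In R 4.3.3, genes kept by filterByExpr of edgeR 4.0.16 with a minimum count of 10 (15532 of 24495) were normalized by TMM and fitted in 1 quasi-likelihood model with 6 group means and 6 residual degrees of freedom. A gene was called where the p-value, adjusted by Benjamini-Hochberg over all tested genes, was under 0.05 and the change at least 1.5-fold. Fold changes of edgeR are shrunk slightly by its prior count, and intervals are 95% intervals. For a gene with 3 or fewer Day 0 counts in a group the ratio was taken from summed counts with an exact interval, or given as a lower bound where there were none.

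The members and lists were chosen with earlier results of these data known. The genes named are the members, Ctsl, other tested TALE genes, the 3 genes most similar to each member, and from each other list up to 2 genes per direction with the largest called change from Day 0 to Day 4 in shSC. Some results that this rule names are not reported here. Replicate numbers were checked for pairing: of 15 pairs of groups 2 had a correlation of replicate deviations over 0.1 (range -0.465 to 0.257), so samples were not paired. Similar patterns were sought among genes with a mean of at least 5 CPM, after adding 0.5 CPM before log2. Levels per kb use the exonic length of the GENCODE M1 annotation, as the union of exons over all transcripts of a gene, found for 20561 genes. Promoter windows come from a RefSeq table for GRCm38.p6. Motif matches and G and C percentages refer to whole windows, and only the printed sequences leave out bases in mm9 exons. Alternatives were other normalization, filters, thresholds and fits, limma 3.58.1 (voom with quality weights), DESeq2 1.42.0 and leaving out libraries.

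The fit was tested on simulated data for Day 4 against Day 0 in shSC. Of 50 genes each changed 1.5-, 2-, 4- and 8-fold it called 9, 34, 46 and 49, and it called 6 of 15332 unchanged genes. All simulated libraries had the same spread for a gene, unlike the shCTSL Day 2 libraries. Comparisons between lines and interactions were not simulated.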

Additional observations from a re-analysis of the deposited data

How the results depend on the processing

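With 2 libraries per group, the calls between lines depended on the fit, whereas the changes from Day 0 did not. Of 24 member changes from Day 0, 0 turned direction in 546 alternative values, and 6 calls were lost, all at a log2 threshold of 1.5 (Pbx3 at Day 2 and Tgif1 at Day 2 and Day 4, in both lines). Of 42 member differences between lines, 36 of 936 alternative values turned direction, 0 calls were lost and 16 were gained. Blocking by replicate number changed no member call.

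The number of members called moved as follows. From Day 2 to Day 4 in shSC it was 1, and 3 without a fold threshold or 0 at log2 1.5. In shCTSL it was 0, and 4 without a fold threshold, or 0 to 2 in leave-one-out (LOO) fits that each drop 1 library. Between lines at Day 0 it was 0, and 1 with only the libraries compared or without the shCTSL Day 2 group, and 0 to 1 in LOO fits. At Day 2 it was 0, and 0 to 2 in LOO fits. For the interaction to Day 2 it was 0, and 1 with DESeq2 and 0 to 3 in LOO fits. For the interaction to Day 4 it was 0, and 1 with only the libraries compared, with limma-voom or without the shCTSL Day 2 group, and 0 to 1 in LOO fits.

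Adjusted p of the Meis2 difference ran over the alternatives from 0.0364 to 1 at Day 0, from 1.33e-05 to 0.791 at Day 2, from 1.15e-04 to 0.836 for the interaction to Day 2 and from 0.0131 to 1 for that to Day 4. Without replicate 2 of shCTSL Day 2 the interactions to Day 2 of Meis1 (-0.96, adjusted p 0.00180), Meis2 (-1.34, adjusted p 1.15e-04) and Meis3 (0.63, adjusted p 0.0487) were called. Without the shCTSL Day 2 group the Day 4 differences of Meis1 (-0.20) and Meis2 (-0.35) had adjusted p of 0.0457 and 0.00267, under 1.5-fold.

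Estimates that turned direction were the Meis3 difference at Day 0 (-9.0e-05; 0.021 with RLE, 0.0023 with the 1 CPM filter, 0.0052 with the block, 0.0080 with only the libraries compared, 0.016 with DESeq2, 0.0028 without the shCTSL Day 2 group), the Tgif1 difference at Day 2 (0.016; -0.011 with RLE and with DESeq2, -0.0041 without a filter, -0.0082 with length offsets), the Pbx3 difference at Day 2 (0.057 with length offsets), the average of Tgif1 (-0.00094 without a filter), the averages of Meis1 (0.12) and Meis2 (0.21) with length offsets and the Meis2 interaction from Day 2 to Day 4 (-0.011 with length offsets). In LOO fits the ranges that crossed 0 were, between lines, Meis3 at Day 0 (-0.11 to 0.16), Pbx2 at Day 0 (-0.058 to 0.18) and Day 4 (-0.073 to 0.0060), Tgif1 at Day 4 (-0.13 to 0.0013), the averages of Meis1 (-0.084 to 0.048) and Meis2 (-0.10 to 0.056), the interactions of Pbx2 to Day 2 (-0.072 to 0.17) and Day 4 (-0.21 to 0.033), and the interactions from Day 2 to Day 4 of Meis1 (-0.070 to 0.30) and Meis2 (-0.14 to 0.29). Over time they were Pbx2 from Day 2 to Day 4 in shCTSL (-0.070 to 0.0086) and, from Day 0 to Day 4 in shSC, Pbx4 (-0.33 to 0.088) and Irx4 (-0.16 to 1.01).

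The Ctsl difference at Day 0 had an adjusted p of 0.0828 and 0.108 without the first and the second shCTSL Day 0 library, that at Day 2 reached 0.714, and that at Day 4 was called without the shCTSL Day 2 group (-0.82, adjusted p 1.79e-05) and with DESeq2 (-0.83, adjusted p 3.10e-05). The fall of Rxrg had an adjusted p of 0.0413, and 0.0975 with DESeq2.

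Counts of all genes called moved too. At log2 1.5 they were 3844 and 3981 for Day 2 and 4778 and 4697 for Day 4 against Day 0 in shSC and shCTSL, and 1462 and 1312 for Day 4 against Day 2. The last comparison gave 2384 to 4385 in shSC and 2335 to 6185 in shCTSL in LOO fits, and in shCTSL 1191 with only the libraries compared and 1255 with limma-voom. Between lines at Day 0, 6 became 29 without a filter, 300 with only the libraries compared, 27 with length offsets, 254 with limma-voom, 48 with DESeq2, 212 without the shCTSL Day 2 group and 0 to 213 in LOO fits. At Day 2, 10 became 60 without a filter, 36 with length offsets, 125 with DESeq2, 2 at log2 1.5, 0 with the block, only the libraries compared or limma-voom, and 0 to 5016 in LOO fits. At Day 4, 2 became 119, 712, 20, 723, 132 and 917 without a filter, with only the libraries compared, length offsets, limma-voom, DESeq2 and without the shCTSL Day 2 group, 1 with the block and 0 to 923 in LOO fits. Averaged over days, 42 became 185 without a filter, 13 with the block, 128 with limma-voom or DESeq2, 71 without a fold threshold, 3 at log2 1.5 and 7 to 1209 in LOO fits. For the interactions to Day 2, 0 became 4 without a filter, 1 with length offsets, 2 with limma-voom, 24 with DESeq2 and 0 to 4120 in LOO fits. To Day 4, 1 became 7, 154, 5, 130, 28 and 258 in the order given for Day 4, 0 with the block and 0 to 252 in LOO fits. From Day 2 to Day 4, 0 became 11 with DESeq2 and 0 to 2325 in LOO fits.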
